A study of Mus musculus with 32 samples.

Results

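Tendon and tenocyte genes were examined in quadriceps RNA of 32 mice, as the 8 genes Tnmd, Scx, Mkx, Comp, Chad, Kera, Cilp2 and Prg4. They were chosen by gene name, and each name matched 1 gene ID among the 53801 listed. All 8 belonged to the 12817 genes that were tested, those that reached 1 TPM in 4 or more libraries. TPM, a measure of transcript abundance, scales the reads of a gene by transcript length and by the total of its library, so that levels of different genes can be set side by side.

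Wild-type (WT) mice were set against mice homozygous for the Col6a2 tm1(KOMP)Vlcg knockout allele (Col6a2-/-), in which the gene for 1 chain of collagen VI is disrupted. Collagen VI is a filament-forming collagen of the matrix around muscle fibres and tendon cells. The allele is present in every cell from conception, came from a C57BL/6N resource strain, was backcrossed for 5 generations to C57BL/6J, and both genotypes were born to heterozygous breeders. Females and males were taken at 5 weeks and at 25 weeks of age, which gives 8 groups of 4 mice, with 1 library of frozen quadriceps sections per mouse. The labels state no treatment.

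Tendon joins muscle to bone through parallel bundles of fibrillar collagen laid down by tenocytes. Scleraxis (Scx) and Mohawk (Mkx) are transcription factors of the tenocyte lineage, TGFβ signalling is a known inducer of Scx, and tenomodulin (Tnmd) is a membrane glycoprotein used as a marker of mature tenocytes. Comp, Chad, Kera and Cilp2 encode proteins of the tendon and cartilage matrix, and Prg4 encodes lubricin, the lubricant of joint surfaces and of gliding tendon. A quadriceps sample can carry tendon, aponeurosis and fascia in amounts that depend on where it was cut.

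The libraries fitted their labels: Col6a2 was at 6.60 to 51.2 TPM in WT and at 0 to 0.171 TPM in Col6a2-/- mice, Xist was found above 1 TPM only in females and Ddx3y only in males. Relative depth, inferred from the coverage values, was 2.02 times greater in the deepest library than in the shallowest, while absolute depth is unknown. Muscle fibre markers were abundant in every library, with summed levels of the 6 genes Acta1, Ckm, Myh4, Mb, Tnnt3 and Pvalb between 20557 and 36910 TPM. The tendon genes were far lower, with medians over all 32 libraries from 10.3 TPM for Tnmd, 7.46 TPM for Kera and 6.47 TPM for Comp down to 0.704 TPM for Mkx. Chad had a median of 4.44 TPM, Scx of 3.31 TPM, Prg4 of 3.0 TPM and Cilp2 of 2.63 TPM. Tnmd, Scx, Comp and Kera reached 1 TPM in all 32 libraries, Chad in 30, Cilp2 in 27, Prg4 in 26 and Mkx in 8. In bulk RNA, fewer cells of a type and less RNA per cell cannot be told apart.

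3 libraries stood apart for these genes, and the age changes of the genes tested for age, the genotype changes of the 8 genes at each age and the sex changes named below are also given without them. They were WT 5-week male 3, Col6a2-/- 5-week female 2 and Col6a2-/- 25-week female 4, where the mean deviation of the 8 genes from their own group, in units of each gene's spread, was 1.81, 1.81 and 1.31. All 8 genes were above the group mean in each of these 3 libraries, as in 4 others with lower scores, of which Col6a2-/- 5-week male 1 came next at 1.04. The choice of 3 is thus a choice along a range. It was made on the values of these same genes, so leaving these libraries out takes high values from the spread between mice. A call that persists without them is therefore a description and no independent support. The lowest libraries were WT 5-week male 2, at -1.57 with none of the 8 genes above the group mean, and Col6a2-/- 5-week female 4, at -1.50. Col6a2-/- 5-week female 2 also had the most genes at 1 TPM or more, 12877 of a range from 10399.

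**Figure D1:**
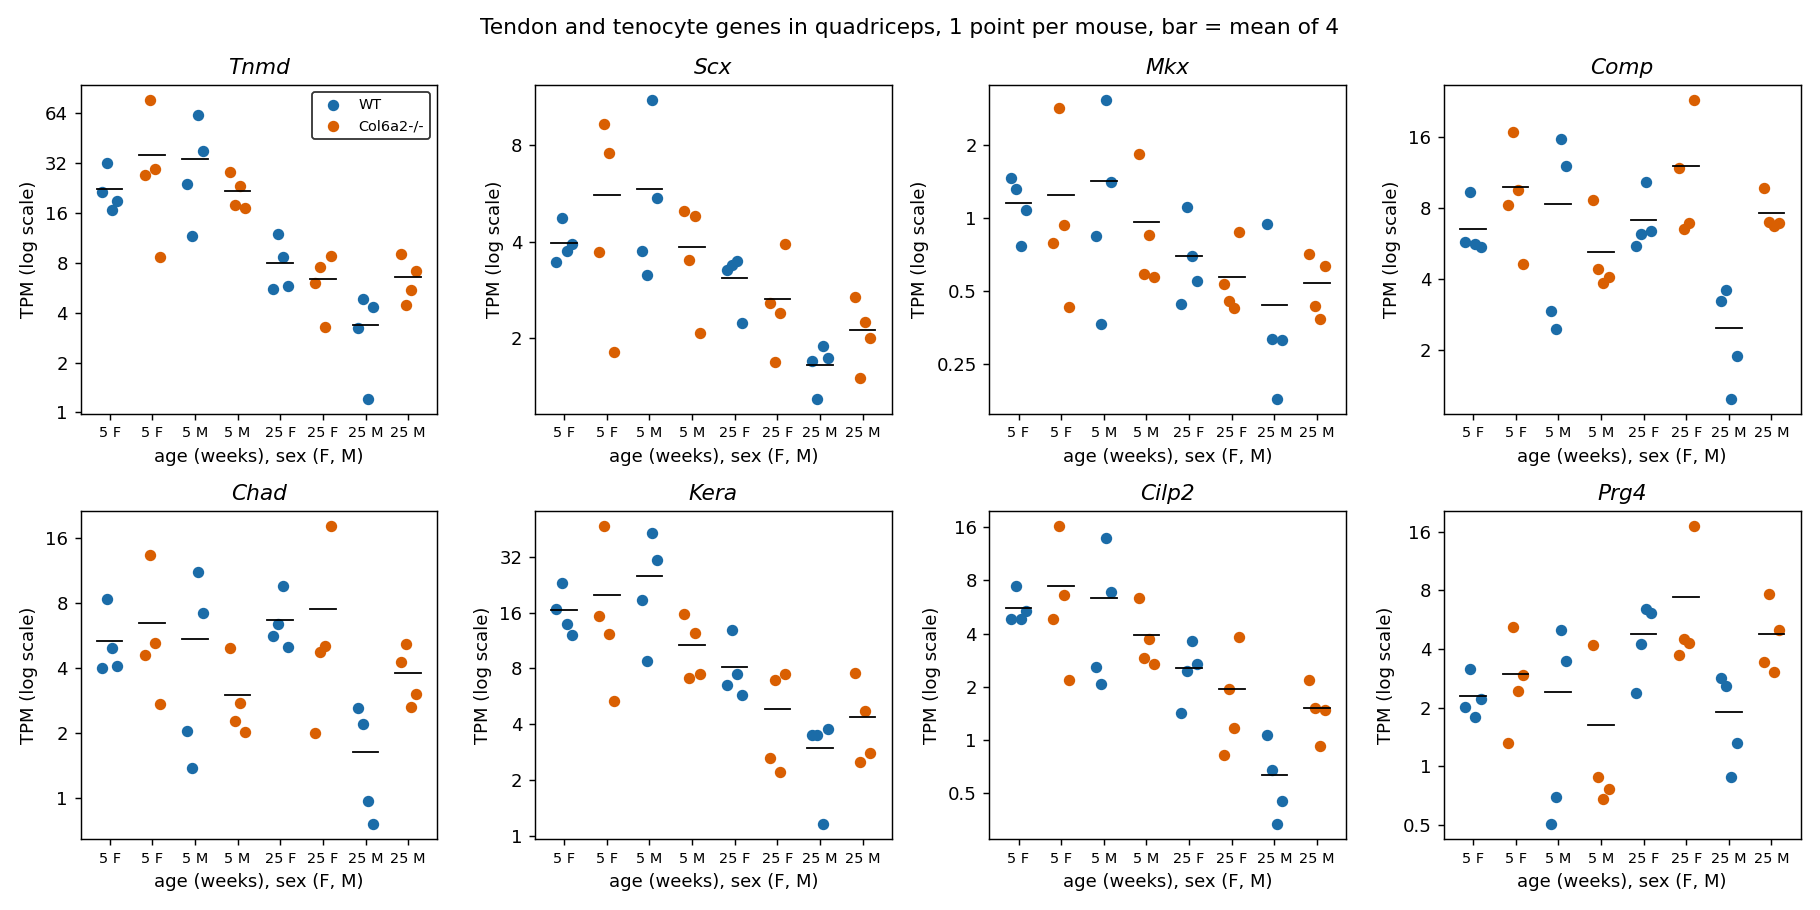
TPM of each tendon gene (log axis) in the 8 groups, 1 point per mouse, WT in blue and Col6a2-/- in orange, with the mean of 4 mice as a bar. Tnmd, Kera and Cilp2 sit lower at 25 than at 5 weeks in both genotypes, while Comp and Chad overlap across ages and Prg4 sits higher at 25 weeks in Col6a2-/- mice.

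The first question was how the tendon genes of quadriceps differ between young and adult mice. Tnmd, Kera, Cilp2 and Scx were lower at 25 than at 5 weeks in both genotypes, by log2 changes between -0.66 and -2.11. Prg4 was the exception, and rose with age in Col6a2-/- mice. Comp and Chad were not called for age in either genotype, and Mkx is described without a test of age, for the reason given with its values. A gene is said to be called where its adjusted p was under 0.05 by limma (moderated linear model on log2(TPM + 1), Benjamini-Hochberg adjustment over all 12817 genes, two-sided). In WT mice 4 of the 7 genes tested for age were called, all lower. Of all tested genes 19.8% were called, 15.3% lower and 4.47% higher at 25 weeks. In Col6a2-/- mice 5 of the 7 were called, 4 of them lower. Of all tested genes 34.2% were called, 28.8% lower and 5.41% higher. Of the genes at 1 TPM in 4 or more libraries of each age, 13.9% were called lower in WT and 26.8% in Col6a2-/- mice. The median log2 change of the 8 genes was -0.64 in WT and -0.51 in Col6a2-/-, beside -0.08 and -0.14 over all tested genes. Over the 7 genes without Mkx it was -0.76 and -0.66.

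Among the transcription factors, Scx, a basic helix-loop-helix factor needed for the formation of force-transmitting tendons, was at 3.46, 4.74, 3.75 and 3.92 TPM in 5-week WT females and at 3.74, 3.14, 11.1 and 5.45 TPM in 5-week WT males. At 25 weeks it was at 3.26, 3.37, 3.48 and 2.23 TPM in WT females and at 1.70, 1.3, 1.89 and 1.73 TPM in WT males. The male groups did not overlap between ages, while 1 of the 4 younger females lay within the range of the older ones. Scx fell by 0.76 on the log2 scale in WT (SE 0.213, limma adjusted p = 0.0109). In Col6a2-/- mice the lowest, median and highest values were 1.81, 4.26 and 9.30 TPM at 5 weeks and 1.5, 2.32 and 3.94 TPM at 25 weeks, a log2 change of -0.66 (SE 0.213, limma adjusted p = 0.0178). Without Col6a2-/- 5-week female 2 alone, the Col6a2-/- call was lost (log2 change -0.52, adjusted p = 0.0587). Without all 3 high libraries, which also leaves out the high Col6a2-/- 25-week female 4, the log2 change was -0.60 (adjusted p = 0.0138). The WT change was then -0.61 (adjusted p = 0.0126).

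Mkx, a homeobox factor that maintains the tenocyte programme, was the least abundant of the 8. It reached 1 TPM in 7 libraries of 5 weeks and 1 of 25 weeks, and in 6 WT and 2 Col6a2-/- libraries. The filter it passed thus favoured a higher level at 5 weeks and in WT, and no test of age is given for it. Its values were 0.368 to 3.06 TPM, with a median of 1.20 TPM, in 5-week WT mice and 0.180 to 1.11 TPM, with a median of 0.497 TPM, at 25 weeks. Among Col6a2-/- mice Mkx was at 0.428 to 2.82 TPM at 5 weeks and at 0.384 to 0.872 TPM at 25 weeks. The ranges of the ages overlapped in both genotypes.

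Tnmd, whose expression in tendon depends on Scx, had the greatest change with age of the 8 genes in both genotypes. In WT females it was at 21.4, 32.1, 16.7 and 18.8 TPM at 5 weeks and at 5.53, 12.0, 8.63 and 5.82 TPM at 25 weeks. In WT males it was at 23.9, 11.6, 62.1 and 38.0 TPM at 5 weeks and at 3.24, 4.82, 1.21 and 4.30 TPM at 25 weeks. Within each sex of WT the ages did not overlap. Over both sexes the lowest 5-week value, 11.6 TPM, was just below the highest 25-week value, 12.0 TPM. The log2 change in WT was -2.11 (SE 0.317, limma adjusted p = 1.92e-05), from a mean of 28.1 ± 16.1 TPM to 5.69 ± 3.32 TPM (SD, n = 8). It was -1.93 (adjusted p = 1.04e-05) without the 3 high libraries.

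In Col6a2-/- females Tnmd was at 27.2, 77.0, 29.4 and 8.72 TPM at 5 weeks and at 6.07, 7.56, 3.28 and 8.80 TPM at 25 weeks. In Col6a2-/- males it was at 28.4, 17.8, 23.3 and 17.2 TPM at 5 weeks and at 8.98, 4.44, 5.50 and 7.16 TPM at 25 weeks. The male groups were apart, and among females only the library of 5-week female 4 reached down into the older range. The log2 change was -1.80 (SE 0.317, limma adjusted p = 7.58e-05), and -1.63 (adjusted p = 9.26e-05) without the 3 high libraries. By group mean the order was Col6a2-/- 5-week females (35.6 ± 29.1 TPM, SD, n = 4), WT 5-week males (33.9 ± 21.7), WT 5-week females (22.2 ± 6.87), Col6a2-/- 5-week males (21.7 ± 5.29), WT 25-week females (7.99 ± 3.01), Col6a2-/- 25-week males (6.52 ± 1.98), Col6a2-/- 25-week females (6.43 ± 2.37) and WT 25-week males (3.39 ± 1.60). Neighbours in this order overlapped in their ranges, apart from the step between the young and the adult groups.

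Kera, which encodes the keratan sulphate proteoglycan keratocan of cornea and tendon, fell with age as Tnmd did. In WT mice its lowest, median and highest values were 8.73, 17.8 and 43.2 TPM at 5 weeks and 1.15, 4.76 and 12.9 TPM at 25 weeks. In Col6a2-/- mice they were 5.37, 12.4 and 47.2 TPM at 5 weeks and 2.21, 3.75 and 7.57 TPM at 25 weeks. The ages overlapped in part in both genotypes. The log2 change was -1.77 in WT (SE 0.332, limma adjusted p = 0.000336) and -1.37 in Col6a2-/- (SE 0.332, adjusted p = 0.00214).

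Cilp2, a secreted protein related to the cartilage intermediate layer protein Cilp, ran from 2.08 to 13.8 TPM with a median of 5.10 TPM in 5-week WT mice and from 0.330 to 3.62 TPM with a median of 1.24 TPM at 25 weeks. In Col6a2-/- mice it ran from 2.18 to 16.4 TPM with a median of 4.27 TPM at 5 weeks and from 0.813 to 3.84 TPM with a median of 1.49 TPM at 25 weeks. In each genotype the lowest 5-week values lay below the highest 25-week values. Its log2 change was -1.41 in WT (SE 0.288, limma adjusted p = 0.000804) and -1.15 in Col6a2-/- (SE 0.288, adjusted p = 0.00289). Without the 3 high libraries the changes of Kera were -1.61 and -1.22 and those of Cilp2 were -1.19 and -1.07, all called.

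Comp, a pentameric protein that binds collagen fibrils in cartilage and tendon, was not called for age. In WT mice the lowest, median and highest values were 2.46, 5.71 and 15.8 TPM at 5 weeks and 1.25, 4.57 and 10.4 TPM at 25 weeks (log2 change -0.52, SE 0.290, limma adjusted p = 0.223). In Col6a2-/- mice they were 3.85, 6.44 and 16.9 TPM at 5 weeks and 6.55, 6.99 and 23.1 TPM at 25 weeks (log2 change 0.37, SE 0.290, adjusted p = 0.338). The ages overlapped widely in both genotypes. With the 3 high libraries left out, the changes were -0.32 (adjusted p = 0.366) and 0.34 (adjusted p = 0.335).

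Chad, or chondroadherin, a leucine-rich repeat protein that binds collagen and integrin, was likewise not called for age. It ran from 1.39 to 11.2 TPM at 5 weeks and from 0.758 to 9.56 TPM at 25 weeks in WT (log2 change -0.38, SE 0.328, limma adjusted p = 0.459). In Col6a2-/- it ran from 2.03 to 13.4 TPM and from 2.01 to 18.3 TPM (log2 change 0.15, SE 0.328, adjusted p = 0.745). The 95% intervals of the age change were wide, from -1.06 to 0.29 in WT and from -0.52 to 0.83 in Col6a2-/-. The changes were -0.18 (adjusted p = 0.651) and 0.09 (adjusted p = 0.827) without the 3 high libraries.

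Prg4 was at 1.33, 5.19, 2.44 and 2.93 TPM in Col6a2-/- females and at 4.18, 0.880, 0.677 and 0.763 TPM in Col6a2-/- males at 5 weeks. At 25 weeks it was at 3.72, 4.52, 4.30 and 17.2 TPM in Col6a2-/- females and at 3.42, 7.67, 3.06 and 5.01 TPM in Col6a2-/- males. The older libraries all lay above 3 TPM, as did only 2 of the 8 younger ones. Prg4 rose by a log2 change of 1.09 with age in Col6a2-/- mice (SE 0.309, limma adjusted p = 0.00755), and by 0.98 (adjusted p = 0.00764) without the 3 high libraries. In WT mice it was at 0.503 to 4.99 TPM at 5 weeks and 0.883 to 6.41 TPM at 25 weeks, with a log2 change of 0.36 (SE 0.309, adjusted p = 0.466), or 0.53 (adjusted p = 0.149) without the 3 high libraries. The difference between these age changes was 0.73 (SE 0.437, limma adjusted p = 0.836), so the age change of Prg4 was not shown to differ between genotypes. Of 5 markers of the synovial lining, a known source of lubricin, 4 were tested, and with age 0 rose and 2 fell in Col6a2-/- mice (Htra4 and Clic5), while 1 rose and 1 fell in WT, beside the shares of all tested genes given above. After the 3 high libraries were left out, 1 rose and 1 fell in each genotype. Their summed level was 39.7 to 66.5 TPM in 5-week and 42.3 to 53.6 TPM in 25-week Col6a2-/- libraries, and its part in the rise of Prg4 was not tested.

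**Figure D2:**
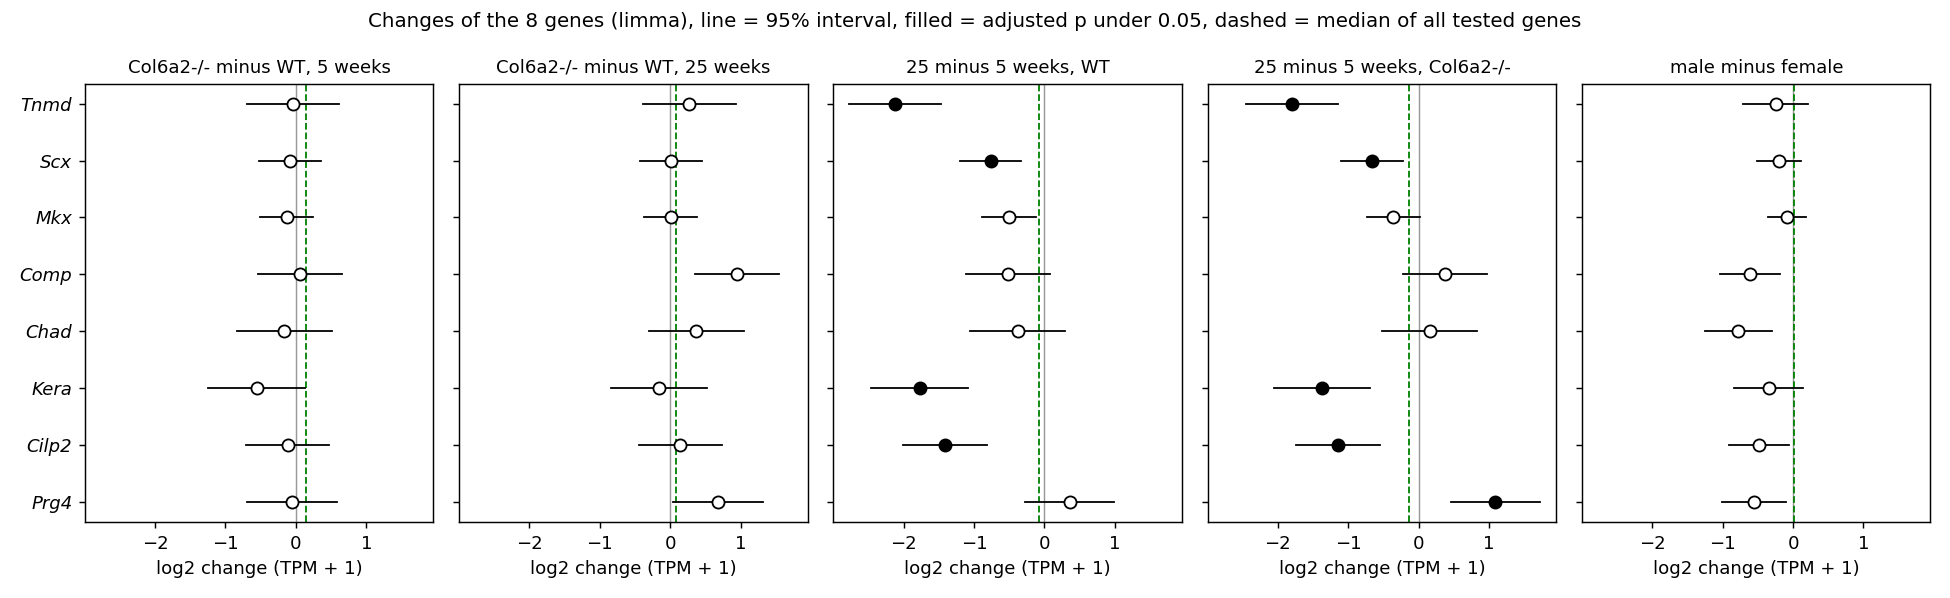
Log2 change of each tendon gene in 5 comparisons, as points with 95% intervals (filled where the limma adjusted p was under 0.05) and the median of all 12817 tested genes as a dashed line. Filled points occur only in the age comparisons, at negative values for Tnmd, Scx, Kera and Cilp2 and at a positive value for Prg4 in Col6a2-/- mice. No test of age is read from Mkx, whose selection favoured 5 weeks and WT.

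None of the 8 genes had ages that were fully apart over both sexes of a genotype, although 3% of all tested genes did in WT and 2.68% did in Col6a2-/- mice. Mice of 1 group varied widely in these genes. The residual SD on the log2 scale was 0.722 for Kera, 0.712 for Chad, 0.688 for Tnmd, 0.670 for Prg4, 0.629 for Comp, 0.624 for Cilp2, 0.458 for Scx and 0.392 for Mkx, beside a median of 0.202 over all tested genes. These spreads lay between the percentiles 93.3 (Mkx) and 98.7 (Kera and Chad) of all tested genes.

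A further description concerns the balance of the genes within a library, and was chosen after the values were seen, so that no test is given. The ratio of Comp to Tnmd, both in TPM, ran from 0.123 to 0.340 in 5-week WT mice and from 0.441 to 1.20 in 25-week WT mice. Among Col6a2-/- mice it ran from 0.165 to 0.533 at 5 weeks and from 0.866 to 2.62 at 25 weeks. The ages did not overlap in either genotype, and the geometric mean ratio was 3.30 times higher at 25 weeks in WT and 5.23 times higher in Col6a2-/-. Tnmd itself fell with age, so a gene without an age change would also rise against it. The ratios to Tnmd of genes other than Comp, Prg4, Chad and Kera are not given.

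The ratio of Prg4 to Tnmd ran from 0.0210 to 0.119 at 5 weeks and from 0.305 to 1.05 at 25 weeks in WT. It ran from 0.0291 to 0.336 and from 0.381 to 1.95 in Col6a2-/-. The geometric mean was 7.60 times higher at 25 weeks in WT and 11.4 times higher in Col6a2-/-. The ages did not overlap for this ratio in either genotype.

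**Figure D3:**
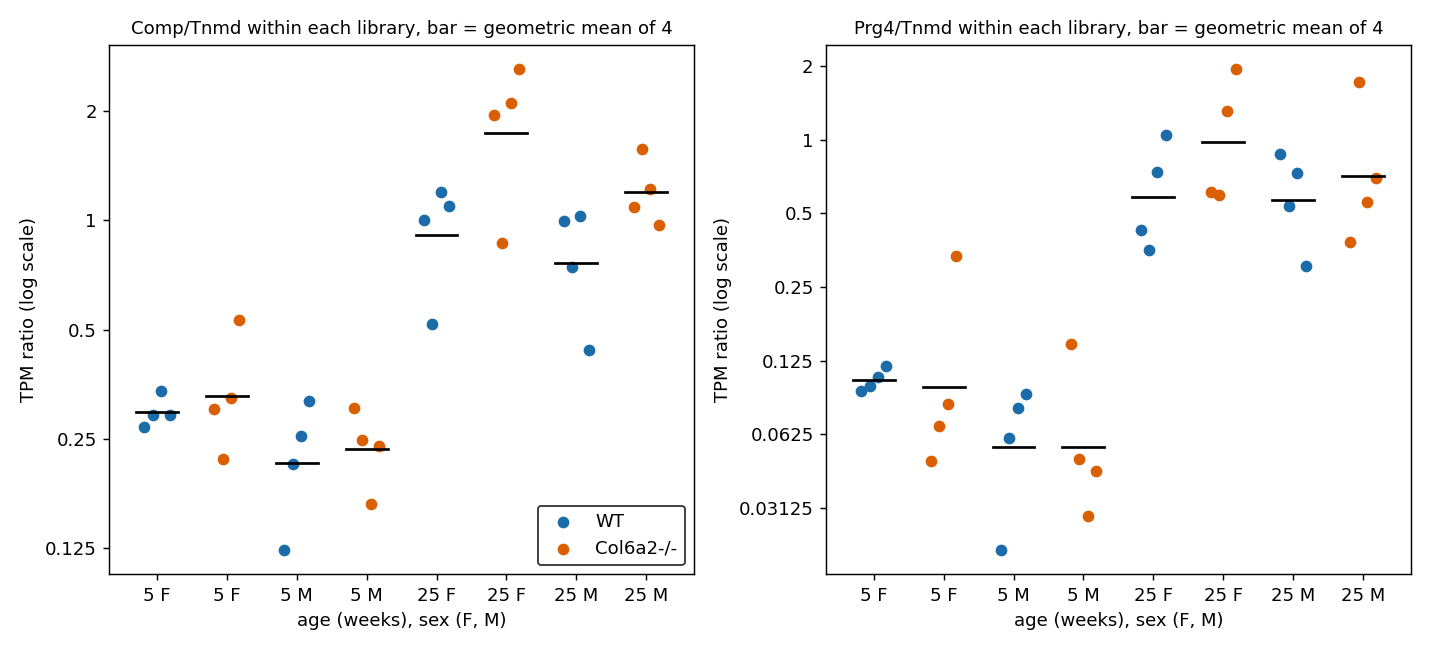
Ratio of Comp to Tnmd (left) and of Prg4 to Tnmd (right) within each library on a log axis, in TPM, 1 point per mouse with the geometric mean of 4 mice as a bar. For Comp to Tnmd the 5-week WT mice sit at 0.123 to 0.340 and the 25-week WT mice at 0.441 to 1.20, and in Col6a2-/- mice the ages are likewise apart.

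The second question was whether loss of Col6a2 changed these genes. At 5 weeks 0 of the 8 tendon genes were called by limma between Col6a2-/- and WT mice, while 25.4% of all tested genes were called. An unadjusted limma p under 0.05 was found for 0 of the 8, beside 38.7% of all tested genes. The median log2 change of the 8 was -0.10, beside 0.15 over all tested genes. The counts of 8 for genotype include Mkx, whose selection favoured WT. Over all genes at 1 TPM in 4 or more libraries of each genotype the median was 0.14. Over the 7 tendon genes without Mkx it was -0.09, with 0 called. The lowest was Kera, at 8.73 to 43.2 TPM in WT and 5.37 to 47.2 TPM in Col6a2-/- mice (log2 change -0.56, SE 0.332, limma adjusted p = 0.215, and -0.66, adjusted p = 0.129, without the 3 high libraries). The ratio of Kera to Tnmd within a library, given above, did not overlap between the genotypes at 5 weeks. For Tnmd the change was -0.04 with a 95% interval from -0.70 to 0.61, and for Scx it was -0.09 with an interval from -0.53 to 0.35. Over the libraries other than the 3 high ones, 12.7% of all tested genes were called higher and 2.58% lower at 5 weeks. The 8 changes then ran from -0.66 for Kera to 0.12 for Comp, with Tnmd at -0.10 (adjusted p = 0.845) and Scx at -0.07 (adjusted p = 0.841). Changes within these intervals could not be told from 0 with 8 mice per genotype. In 5-week females 0 of 8 were called against 12.9% of all tested genes, and in 5-week males 0 of 8 against 5.03%. In 5-week females 6 of the 8 changes were positive, with a median of 0.15, and without the 3 high libraries 1 was (Comp). All 8 changes were negative in 5-week males, where WT male 3 and male 4 were high, and without WT male 3, or without the 3 high libraries, 4 of them were positive.

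At 25 weeks 0 of the 8 genes were called, against 4.7% of all tested genes. Of the 8 genes 2 had an unadjusted limma p under 0.05, Comp and Prg4, beside 19.3% of all tested genes. The median log2 change of the 7 genes without Mkx was 0.27, and 0.12 without the 3 high libraries, with 0 called in each. Over the genes that passed in each genotype it was 0.08 and 0.07. Comp was at 11.8, 6.55, 6.90 and 23.1 TPM in Col6a2-/- females and at 5.54, 6.23, 10.4 and 6.39 TPM in WT females. It was at 9.79, 7.02, 6.72 and 6.96 TPM in Col6a2-/- males and at 3.23, 3.59, 1.25 and 1.89 TPM in WT males. The males of the genotypes were apart and the females overlapped. Over both sexes the level was 9.86 ± 5.66 TPM in Col6a2-/- and 4.81 ± 2.96 TPM in WT (SD, n = 8). The log2 change was 0.95 (SE 0.290, limma adjusted p = 0.0540), just outside the threshold, and the adjusted p ran from 0.0153 to 0.146 over the alternative settings. Without the 3 high libraries it was 0.78 (adjusted p = 0.0558).

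Comp passed the threshold when any 1 of 9 libraries was left out. The adjusted p was 0.0356 without Col6a2-/- 5-week female 2, 0.0360 without Col6a2-/- 5-week female 4, 0.0373 without WT 5-week male 3 and 0.0373 without Col6a2-/- 25-week female 2. It was 0.0403 without WT 5-week male 2, 0.0443 without Col6a2-/- 25-week female 3 and 0.0468 without WT 5-week male 1. It was 0.0485 without Col6a2-/- 5-week male 1 and 0.0491 without WT 25-week female 3. The size of the change lay between 0.78 and 1.06 over all 32 libraries left out in turn.

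Prg4 at 25 weeks was at 3.06 to 17.2 TPM in Col6a2-/- mice and at 0.883 to 6.41 TPM in WT mice, which overlapped (log2 change 0.67, SE 0.309, limma adjusted p = 0.225). Without the 3 high libraries the change was 0.45 (adjusted p = 0.336). Of the rest, Mkx is left out, since its selection favoured WT. The others had log2 changes at 25 weeks from -0.16 for Kera to 0.37 for Chad, with adjusted p from 0.577 to 0.977. These values rested in part on Col6a2-/- 25-week female 4, the only 25-week library among the 3 high ones. Without the 3, Chad was at 0.12, Tnmd at 0.20, Cilp2 at 0.0078 and Kera at -0.27, while Scx (-0.06) turned negative. Their adjusted p ran from 0.639 to 0.988, and the changes were the same without that library alone. In 25-week females 0 of 8 were called, against 0.0078% of all tested genes, and 2 of the 8 changes were positive (Comp and Prg4), with a median of -0.17. Comp alone was positive without the 3 high libraries.

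In 25-week males 0 of 8 were called, against 3.03% of all tested genes, although all 8 changes were positive (under quantile normalisation Mkx was negative). Chad was at 4.29, 5.20, 2.64 and 3.05 TPM in Col6a2-/- males and at 2.62, 2.21, 0.971 and 0.758 TPM in WT males. Prg4 was at 3.42, 7.67, 3.06 and 5.01 TPM and at 2.84, 2.58, 0.883 and 1.31 TPM in the same groups. For Comp, Chad and Prg4 the males of the genotypes did not overlap, 3 of 8 genes, beside 14.5% of all tested genes. The log2 changes were 1.35 for Comp (SE 0.410, limma adjusted p = 0.0653), 0.99 for Prg4 (SE 0.437, adjusted p = 0.197) and 0.90 for Chad (SE 0.463, adjusted p = 0.280). Comp in males was called without WT 5-week male 2 (adjusted p = 0.0499), WT 5-week male 3 (0.0477), Col6a2-/- 5-week female 2 (0.0405) or Col6a2-/- 5-week female 4 (0.0403), and without the 3 high libraries (0.0153). None of these libraries belongs to the 25-week males, and their absence changed the common estimate of the spread but not the size of the change.

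For the genotype effect by age 0 of 8 genes were called, against 0.492% of all tested genes, and for genotype by sex 0 of 8 against 0.0156%. The largest difference by age was that of Comp (0.89, SE 0.410, unadjusted p = 0.0385 and limma adjusted p = 0.658). By sex the differences ran from -0.12 for Scx to 0.26 for Chad. None had an unadjusted limma p under 0.05, beside 1.61% of all tested genes. Without the 3 high libraries all 8 were positive, from 0.25 for Scx to 0.83 for Cilp2 and 0.91 for Chad, with an adjusted p of 0.915 for each. The genotype effect on these genes was therefore not shown to depend on age or sex.

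The third comparison, males against females over both ages and genotypes, gave lower values on average in males for all 8 genes, with 0 called against 3.05% of all tested genes. The median log2 change was -0.41, beside 0.02 over all tested genes. The unadjusted limma p was under 0.05 for 4 of the 8, beside 13.2% of all tested genes. Chad was at 2.01 to 18.3 TPM with a median of 5.04 TPM in 16 females and at 0.758 to 11.2 TPM with a median of 2.63 TPM in 16 males (log2 change -0.77, SE 0.232, limma adjusted p = 0.0663). Comp was at 4.65 to 23.1 TPM with a median of 6.73 TPM in females and at 1.25 to 15.8 TPM with a median of 4.25 TPM in males (log2 change -0.61, SE 0.205, adjusted p = 0.122). The sexes overlapped for both. Prg4 had a log2 change of -0.55 (SE 0.218, adjusted p = 0.222) and Cilp2 of -0.48 (SE 0.204, adjusted p = 0.271), and without the 3 high libraries they were at -0.47 (adjusted p = 0.152) and -0.41 (adjusted p = 0.113). The direction was not the same in every genotype and age. In 5-week WT mice mean TPM was higher in males for Tnmd (33.9 against 22.2), Kera (25.3 against 16.5) and Scx (5.85 against 3.97). These males include the high WT 5-week male 3. In 5-week Col6a2-/- and 25-week WT mice the means of the same genes were lower in males.

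Chad passed the threshold for sex without WT 5-week male 3 (adjusted p = 0.0227), Col6a2-/- 25-week female 1 (0.0254), Col6a2-/- 5-week female 4 (0.0404) or WT 5-week male 4 (0.0490), and without the 3 high libraries (log2 change -0.66, adjusted p = 0.0244). Comp passed it without WT 5-week male 3 (log2 change -0.71, adjusted p = 0.0393) and not without the 3 high libraries (-0.55, adjusted p = 0.0648).

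Within groups the 8 genes rose and fell together from mouse to mouse. After the group mean was subtracted from log2(TPM + 1), the Pearson correlations of the 28 pairs over the 32 libraries ran from 0.46 to 0.935, with a median of 0.784, and Spearman's rho ran from 0.369 to 0.878, with a median of 0.719. They are given as a description. Tnmd and Kera were the closest pair (r = 0.935), then Chad and Cilp2 (0.909) and Mkx and Cilp2 (0.884), and the lowest were those of Prg4 to Scx (0.46), Kera (0.494) and Tnmd (0.516). Prg4 was closer to Chad (0.838), Comp (0.806), Cilp2 (0.782) and Mkx (0.690). With the 2 libraries farthest from the median left out of each pair, the median r was 0.716, with a range from 0.458 to 0.903. Without the 3 high libraries the median r was 0.648. The values share a library and so share its total and depth.

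**Figure D4:**
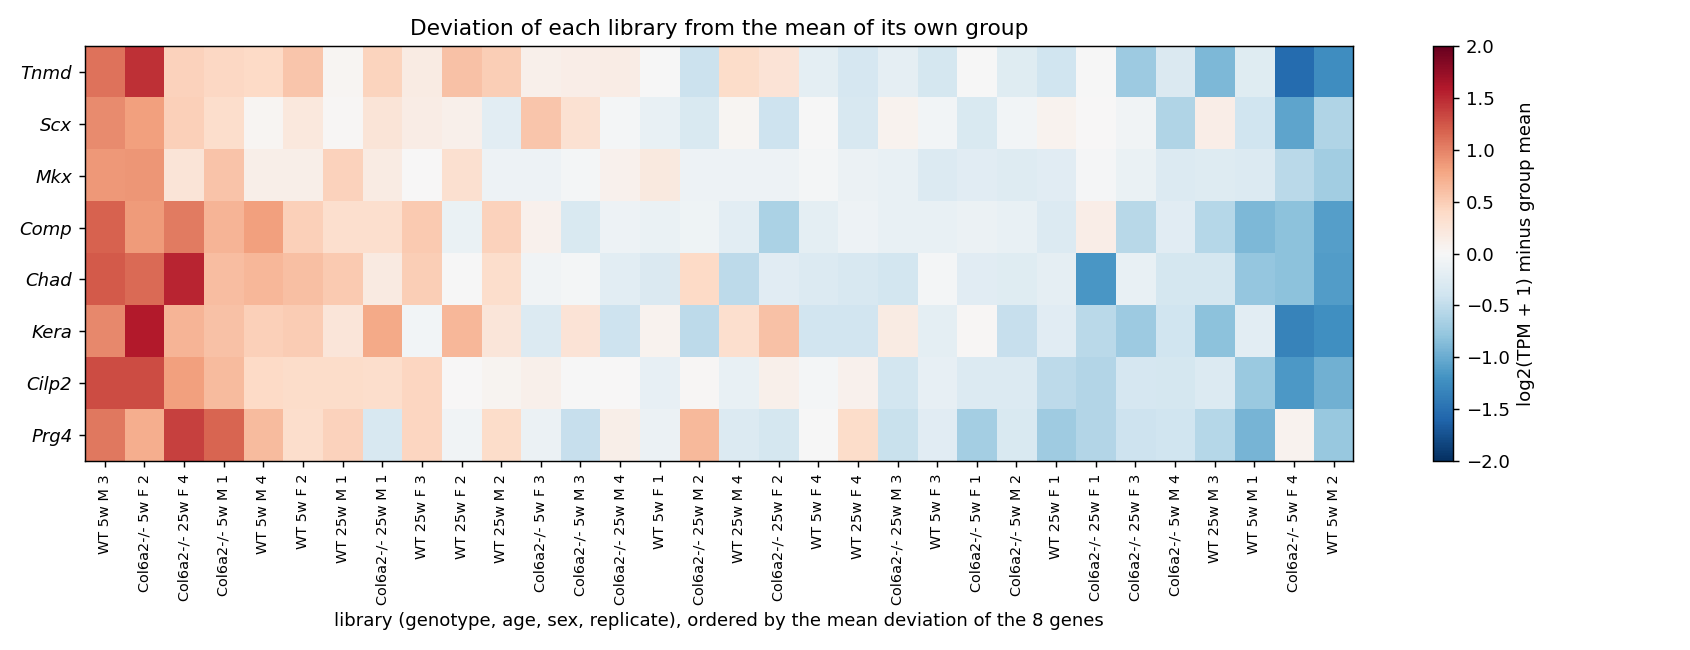
Deviation of each tendon gene from the mean of its own group, as log2(TPM + 1), in the 32 libraries ordered from the highest to the lowest mean deviation. The columns are mostly of 1 colour from top to bottom, red at WT 5-week male 3 and Col6a2-/- 5-week female 2 (mean deviation 1.81 spread units each) and blue at WT 5-week male 2 (-1.57).

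Genes outside the 8 that were most like them were found by the Pearson r, over the 32 libraries with group means subtracted, with the mean of the 8 genes. The 10 closest were Abi3bp (0.953), Fmod (0.949), Wif1 (0.927), Tnc (0.917), Itgbl1 (0.911), Cpxm2 (0.905), Ptgis (0.904), Lox (0.897), Adamts3 (0.896) and Gas1 (0.894). Fmod encodes fibromodulin and Tnc tenascin C, both of tendon matrix, Lox the collagen cross-linking enzyme lysyl oxidase and Wif1 a secreted Wnt inhibitor. Without the 3 high libraries these 10 values lay between 0.754 and 0.913.

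Of 24 further genes of tendon matrix and tenocytes 23 were tested, and 20 of the 23 (87.0%) had r over 0.5 with the mean of the 8, beside 18.5% of all tested genes. The median r was 0.756, beside 0.320 over all tested genes. In the other libraries, without the 3 high ones, 18 of 23 (78.3%) had r over 0.5, with a median of 0.658, beside 7.32% and 0.214 over all tested genes. Among genes of the myotendinous junction, where muscle fibres meet tendon, 4 of 5 had r over 0.5, and Col22a1, a collagen of that junction, was at 0.833. Of fibroblast and fibro-adipogenic progenitor markers 2 of 10 exceeded 0.5 (Pdgfra 0.617 and Mfap5 0.547), of muscle fibre genes 1 of 6, of adipocyte genes 0 of 6 and of Schwann cell and perineurial genes 0 of 6. Of the synovial lining markers 2 of 4 did, and of the TGFβ, GDF and FGF genes described below 6 of 12 (50%) did, with a median of 0.50. Over these other libraries the counts were 2 of 5 for the junction, 1 of 10 for fibroblasts, 3 of 12 for the TGFβ, GDF and FGF genes (median 0.364) and 0 for muscle fibres, adipocytes, Schwann cells and synovial lining.

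**Figure D5:**
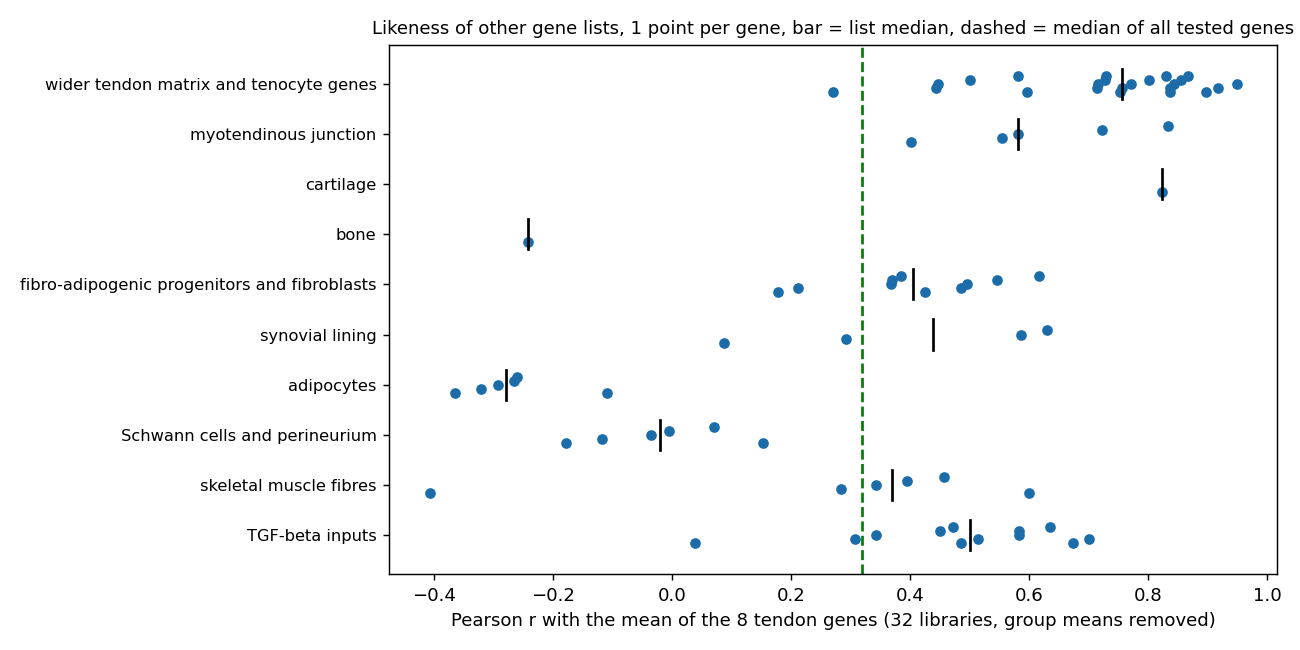
Pearson r of single genes with the mean of the 8 tendon genes over 32 libraries, group means subtracted, by gene list, with the list median as a bar and the median of all tested genes (0.320) as a dashed line. Wider tendon genes have a median of 0.756 and adipocyte genes one of -0.278, which turned to 0.268 without the 3 high libraries.

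The wider tendon list was also compared between genotypes. At 5 weeks 12 of its 23 tested genes were called higher and 1 lower in Col6a2-/- mice, with a median log2 change of 0.54, where 0 of the 8 were called. Over all tested genes 23.2% were called higher, and the median was 0.15. One of the 12, Egr1, reached 1 TPM only in Col6a2-/- libraries, so that its selection favoured a rise, and without it 11 of 22 were higher, beside 21.6% of the genes that passed in each genotype. Cilp, the matrix protein related to Cilp2, rose by 2.19 (SE 0.224, limma adjusted p = 5.07e-08), asporin (Aspn) by 1.25 (SE 0.148, adjusted p = 6.28e-07), biglycan (Bgn) by 1.09 (SE 0.165, adjusted p = 2.08e-05) and Col5a2, of fibrillar collagen V, by 1.0 (SE 0.186, adjusted p = 0.000258). At 25 weeks 9 of 23 were higher and 0 lower, with a median of 0.59, beside 4.47% of all tested genes called higher and a median of 0.08. Tppp3, a marker of tendon sheath and paratenon cells, had the smallest p (log2 change 1.18, SE 0.165, adjusted p = 0.000135), while Cilp rose by 1.46 (SE 0.224, adjusted p = 0.000324). When the 3 high libraries were left out, 11 of 23 were called higher at 5 weeks and 8 of 23 at 25 weeks, beside 12.7% and 4.74% of all tested genes. Many genes of this list, the collagens and small proteoglycans among them, are also expressed by muscle fibroblasts. Fibroblast markers were called higher for 5 of 10 genes at 5 weeks and for 6 of 10 at 25 weeks, beside the same 23.2% and 4.47%. The counts were 1 and 6 of 10 without the 3 high libraries, beside 12.7% and 4.74%. Their summed level was 381 to 526 TPM in WT and 424 to 721 TPM in Col6a2-/- libraries at 5 weeks, and 277 to 540 TPM against 520 to 798 TPM at 25 weeks.

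Muscle fibre genes moved the other way at 5 weeks. Of the 6 genes 4 were called lower in Col6a2-/- mice, beside 2.14% of all tested genes, Tnnt3 at -0.32 (SE 0.0837, limma adjusted p = 0.00617), Ckm at -0.33 (SE 0.0915, adjusted p = 0.0103), Pvalb at -0.51 (SE 0.154, adjusted p = 0.0161) and Myh4 at -0.43 (SE 0.157, adjusted p = 0.0456). At 25 weeks 0 of 6 were called, where 30 of all 12817 tested genes were called lower. Without the 3 high libraries 1 of 6 was lower, beside 0.412% of all tested genes. The summed level at 5 weeks was 27646 to 36910 TPM in WT and 20787 to 35347 TPM in Col6a2-/- libraries. Of 6 adipocyte markers 0 were called for genotype at either age, beside 25.4% and 4.7% of all tested genes. Their median log2 change was 0.38 at 5 weeks and 0.75 at 25 weeks. Without the 3 high libraries the medians were 0.25 and 0.97. At 25 weeks 1 of 6 was then called higher, beside 4.74% of all tested genes. The part of fibroblasts, muscle fibres and adipocytes in the change of the wider list was not tested.

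With age the wider list moved in the same direction as Tnmd, Kera, Cilp2 and Scx. In WT mice 15 of 23 were called lower and 0 higher, and in Col6a2-/- mice 15 lower and 0 higher, with medians of -0.98 and -1.15. Of all tested genes 15.3% and 28.8% were called lower, with medians of -0.08 and -0.14. In the absence of the 3 high libraries 14 and 15 were called lower, with medians of -0.77 and -1.08, beside 17% and 20.8% of all tested genes. Among its fibrillar collagens, Col1a1 was at -3.60 (SE 0.348, limma adjusted p = 1.70e-08), Col1a2 at -3.07 (SE 0.262, adjusted p = 1.89e-09) and Col3a1 at -2.60 (SE 0.220, adjusted p = 1.64e-09) in WT mice. Between the sexes 0 of 23 were called, beside 3.05% of all tested genes.

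Markers of other tissue in the sample were measured beside the age result. Of the 6 myotendinous junction genes 5 were tested. One of them, Adamts20, reached 1 TPM in 16 libraries of 5 weeks and 1 of 25 weeks and is not counted with age, since its selection favoured a fall. With age 1 of the other 4 fell in WT and 3 of 4 in Col6a2-/- mice (1 and 2 without the 3 high libraries), beside 13.9% and 26.8% of the tested genes that likewise reached 1 TPM in 4 or more libraries of each age. Col22a1 fell by 0.63 in WT (SE 0.174, limma adjusted p = 0.00969) and by 0.70 in Col6a2-/- (SE 0.174, adjusted p = 0.00277). Their summed level over 6 genes ran from 9.54 to 19.6 TPM in 5-week WT, from 4.47 to 18.8 TPM in 25-week WT, from 12.3 to 33.8 TPM in 5-week Col6a2-/- and from 8.77 to 17.4 TPM in 25-week Col6a2-/- libraries. At 5 weeks the change between genotypes in this list was that of Ankrd1, a stretch-responsive gene of muscle (1.67, SE 0.211, adjusted p = 1.43e-06), 1 of 5 genes called higher, beside 23.2% of all tested genes.

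Cartilage markers were low. Their summed level over 9 genes ran from 0.536 to 6.14 TPM at 5 weeks, highest in WT 5-week male 3, and from 0.191 to 0.559 TPM at 25 weeks. Cnmd was at 0 in 19 libraries and Ucma in 23, and Acan had a median of 0.0607 TPM. Col2a1, the only 1 of them tested, had r = 0.823 with the 8 genes. It reached 1 TPM in 7 libraries of 5 weeks and 0 of 25 weeks, so that its selection favoured a fall with age and no test of age is given for it. Bone markers summed to 0.185 to 12.7 TPM over 6 genes, highest in Col6a2-/- 5-week female 3 and Col6a2-/- 5-week male 2, which were not among the high libraries for tendon genes, and Sost was at 0 in 31 libraries. Muscle fibre genes fell with age for 2 of 6 in each genotype, beside 15.3% and 28.8% of all tested genes, which in Col6a2-/- mice is close to the share over all genes.

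Fibroblast and nerve sheath markers also fell in part with age. Of 10 fibroblast markers 5 were called lower in WT, and 4 lower and 1 higher in Col6a2-/- mice, beside 15.3% lower in WT and 28.8% lower and 5.41% higher in Col6a2-/- over all tested genes. Col15a1, a collagen of basement membranes, changed by -1.56 in WT (SE 0.160, limma adjusted p = 4.81e-08) and by -1.68 in Col6a2-/- (SE 0.160, adjusted p = 5.16e-09). Their summed levels are given above and overlapped between ages in both genotypes. Of 6 Schwann cell and perineurial markers 2 were called lower in WT and 4 in Col6a2-/- mice, beside the same 15.3% and 28.8%, and 4 in each without the 3 high libraries, beside 17% and 20.8%. These 6 genes summed to 34.6 to 191 TPM in 5-week and 17.2 to 36.8 TPM in 25-week WT libraries, and to 36.7 to 108 TPM and 11.3 to 44.6 TPM in Col6a2-/-. The part of all these tissues in the age change of the tendon genes was not tested.

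Of 16 genes of the TGFβ, GDF and FGF signals that act on tendon cells 12 were tested. Tgfb1 and Fgfr2 reached 1 TPM in 4 or more libraries only of 5 weeks, and only of Col6a2-/- mice, so that their selection favoured a rise with genotype and a fall with age, and they are left out of the counts. Between genotypes at 5 weeks 2 of the other 10 rose, beside 21.6% of the tested genes that reached 1 TPM in 4 or more libraries of each genotype. They were Tgfbr1 by 0.63 (SE 0.118, limma adjusted p = 0.000258) and Tgfb3 by 0.44 (SE 0.102, adjusted p = 0.00267). Myostatin (Mstn), a muscle-derived ligand of this family, fell by 0.69 (SE 0.152, adjusted p = 0.00168). It was the 1 of 10 called lower, beside 2.24% of the genes that passed in each genotype. With the 3 high libraries left out, 2 of 10 rose at 5 weeks, beside 11.4%. At 25 weeks 0 of 10 were called, beside 4.24% higher and 0.213% lower of the genes that passed in each genotype. Without the 3 high libraries 1 was lower, beside 0.408%. With age 1 of 10 fell in WT, beside 13.9%, and 3 fell and 1 rose in Col6a2-/- mice, beside 26.8% and 5.38%. The falls were 2 in WT and 1 in Col6a2-/- mice without the 3 high libraries, beside 15.8% and 18.9%. The counts of rises between genotypes at 5 weeks and of falls with age were near those of all genes. Scx, which responds to TGFβ in tendon cells, had a log2 change of -0.09 between genotypes at 5 weeks (limma adjusted p = 0.778) and of 0.02 at 25 weeks (adjusted p = 0.977).

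The starts of Tnmd and Chad are shown as one gene that was lower with age and one that was not called. The window is the 250 bases upstream of the RefSeq transcript start, on GRCm38.p6, plus strand, at chrX:133850758-133851007 for Tnmd and chr11:94564797-94565046 for Chad. The last bases of the Tnmd window lie inside the gene as the tables list it. Capitals mark CANNTG, the E-box letters that basic helix-loop-helix factors such as Scx recognise, searched on both strands, which for this motif are the same pattern.
Tnmd: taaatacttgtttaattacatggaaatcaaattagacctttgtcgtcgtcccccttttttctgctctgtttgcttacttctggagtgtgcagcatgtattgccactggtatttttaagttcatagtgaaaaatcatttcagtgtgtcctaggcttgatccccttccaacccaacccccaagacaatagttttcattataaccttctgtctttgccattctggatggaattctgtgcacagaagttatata
Chad: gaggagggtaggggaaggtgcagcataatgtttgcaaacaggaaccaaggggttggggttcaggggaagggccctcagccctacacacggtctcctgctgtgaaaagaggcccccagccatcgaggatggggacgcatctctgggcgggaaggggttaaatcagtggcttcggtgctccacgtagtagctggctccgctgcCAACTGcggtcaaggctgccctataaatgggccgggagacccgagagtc
The Chad window held 1 match, which begins 49 bases before the start, and the Tnmd window held 0, while 66.2% of 32851 windows of the same length held at least 1. A match is a run of letters and not a binding site, and the absence of one says only that the letters are not in this window. RefSeq windows were found for 4 of the 8 genes, Tnmd, Chad, Kera and Cilp2. The windows of Kera, with 0 matches, and of Cilp2, with 1, lie wholly inside the genes as the tables list them, since RefSeq places those starts further in, and are not compared with the others.

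On GRCm38, as the tables list them, Tnmd (ENSMUSG00000031250) lies at chrX:133850980-133865577, Scx (ENSMUSG00000034161) at chr15:76457452-76459458, Chad (ENSMUSG00000039084) at chr11:94565047-94569127 and Kera (ENSMUSG00000019932) at chr10:97606879-97613692, all on the plus strand. Comp (ENSMUSG00000031849) lies at chr8:70373558-70382066 on the plus strand, and Cilp2 (ENSMUSG00000044006) at chr8:69880369-69887687 and Prg4 (ENSMUSG00000006014) at chr1:150449412-150466165 on the minus strand. Scx lies within Bop1 and Chad within Acsf2, each on the opposite strand with 0 shared exon bases in GENCODE M21. Prg4 shares 204 exon bases, 4.77% of its exons, with Tpr on the other strand. The labels do not say whether strand was used in counting, so reads of these pairs could be mixed. Acsf2 and Tpr were not called with age in either genotype. Bop1 fell by 0.30 in Col6a2-/- mice (limma adjusted p = 0.0211). In WT mice its change was -0.06 (adjusted p = 0.706), and the difference between these was not tested. The part of these partners in the values of Scx, Chad and Prg4 was not tested.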

How the data were processed

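RNA of quadriceps cryosections was sequenced in pairs after a TruSeq RNA preparation, per the labels' protocols, and replicates are separate mice. The submitters' processing notes name FastQC, MultiQC, Trimmomatic, HISAT2, SAMtools and StringTie and the builds GRCm38 and mm10, without versions or roles. The deposited TPM values, computed by the authors, were summed per gene ID and used for all tests. The deposited FPKM values and the deposited coverage, a signal of mean read depth per the file headers, served only to infer depth from their ratio. That ratio assumes that FPKM equals coverage over sequenced bases. Read as sequenced bases it would exceed what the MiSeq named in the labels yields, so it is used only as relative depth. No counts were used, so the design's branch for normalised values was followed.

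Genes that reached 1 TPM in 4 or more libraries were analysed as log2(TPM + 1). A model with a mean per group was fitted over the 32 libraries in limma 3.58.1 (eBayes with trend) in R 4.3.3, with contrasts that weight the sexes equally and 11 comparisons. On data simulated for the genotype comparison at 5 weeks over 12817 genes, 100% of 100 genes changed by 1 on the log2 scale were recovered, as were 99% of 100 changed by 2, with 6 false calls. The residual SD of the tendon genes was 0.392 to 0.722, beside a median of 0.202 over all tested genes. Recovery at that spread is not given. Correlations used Python 3.11.15, numpy 2.4.6 and pandas 2.3.3, and plots matplotlib 3.10.9.

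The 8 genes, the other lists and the alternatives were chosen with earlier results of these data known. All 8 genes are named. From other lists up to 4 genes with the smallest p were named, apart from Egr1, Adamts20, Tgfb1, Fgfr2, Col22a1, the correlation examples and the zero-level markers, which were chosen after their values were seen. The likeness rule took the 10 highest r. The position of Mkx is not reported here.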

Additional observations from a re-analysis of the deposited data

Results flagged for a closer look

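In 7 of the 64 gene and group combinations 1 mouse stood far from the other 3 by Dixon's test, which chance alone would do in about 1 of 20. Of these, 5 were high. Comp was at 9.36 TPM in WT 5-week female 2 (the others 5.46 to 5.75), at 8.64 TPM in Col6a2-/- 5-week male 1 (3.85 to 4.40) and at 9.79 TPM in Col6a2-/- 25-week male 1 (6.72 to 7.02). Prg4 was at 4.18 TPM in Col6a2-/- 5-week male 1 (0.677 to 0.880) and at 17.2 TPM in Col6a2-/- 25-week female 4 (3.72 to 4.52). These 5 values came from 4 libraries. All 8 tendon genes were above the group mean in 3 of them, and 7 of 8 in Col6a2-/- 25-week male 1.

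Scx was low in WT 25-week female 4, at 2.23 TPM, with the others at 3.26 to 3.48, and Kera was low in WT 25-week male 3, at 1.15 TPM, with the others at 3.49 to 3.78.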

How the results depend on the processing

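Over 42 alternative settings 3641 of 3685 values of single genes kept their side of the threshold, 43 passed it (Mkx with age, for which no test is given, among them) and 1 lost it (Scx with age in Col6a2-/- mice, given above). Of the 3685 values 135 changed sign, and 0 of these were called. At 25 weeks the count called for genotype was 1 (Comp) with a pseudocount of 0.1, median-of-ratios scaling, only the compared groups fitted, or array weights, and 0 to 1 with each library left out. In 25-week males it was 1 (Comp) with the pseudocount of 0.1, only the compared groups, array weights, or without the 3 high libraries, which were chosen after seeing the data, and 0 to 1 with each library left out. For sex it was 1 (Chad) with median-of-ratios scaling, quantile normalisation, array weights or without the 3 high libraries, and 0 to 2 with each library left out. The median correlation of the 8 genes fell to 0.648 without the 3 high libraries. Median-of-ratios scaling moved the median of all genes with genotype at 5 weeks from 0.15 to 0.00062, and the median of the 8 genes from -0.10 to -0.25, with 0 of 8 called in both. Whether replicate numbers pair the mice is not known. The mean residual correlation was 0.0308 for the same number, over 0.1 in 35 of 112 pairs, and -0.0101 for other numbers. With the replicate block the counts of called tendon genes were the same in all 11 comparisons, with Comp at 25 weeks at a limma adjusted p of 0.0699. Depth limits Mkx most, with a coverage of 0.576 to 17.8 reads.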
